A study of Mus musculus with 2 samples.

Results

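Growth factor receptors and the inhibitors they induce were followed in mouse muscle stem cells as 10 genes, chosen by name: the receptors Fgfr1, Fgfr4, Met, Igf1r and Igf2r, the Sprouty genes Spry1, Spry2 and Spry4, and the feedback genes Dusp6 and Errfi1. They are 10 of the 20830 genes listed for the 10% aliquot and of the 26997 listed for the 90% aliquot. The cells came from mice on a C57BL6 background that carry Pax7creERT2 and R26-eYFP, in which tamoxifen switches on YFP in cells with an active Pax7 promoter and in their descendants. Tamoxifen was given on 5 days at 3 months of age, and muscles were taken 2 weeks later. YFP-sorted cells of uninjured hindlimb muscle (quiescent) and of muscle taken 72 hours after 40 uL of 1.2% barium chloride (activated) were profiled as 1 capture by 3′ droplet sequencing. The labels do not say which barcode came from which muscle, and the number of mice is not given in the sources used here.

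FGFR1 and FGFR4 are receptor tyrosine kinases for fibroblast growth factors, and MET is the receptor for hepatocyte growth factor, which is released in injured muscle. IGF1R is the kinase receptor for insulin-like growth factors, while IGF2R binds IGF2 and carries it to lysosomes without a kinase of its own. Sprouty proteins damp signalling from receptor tyrosine kinases to ERK, DUSP6 removes phosphate from ERK, and ERRFI1 (also called MIG6) blocks the EGF receptor family. Spry1 is known as a gene that quiescent muscle stem cells need when they return to rest.

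Barcodes were therefore set apart by RNA content. The shallow non-cycling class held barcodes of 3000 to 15000 short-read UMIs (counted molecules) with 0 UMIs of the cell cycle genes Rrm2, Top2a and Cdk1, and the deep class held barcodes of at least 20000 UMIs. The 10% aliquot had 157 shallow non-cycling barcodes with 1114508 UMIs and 79 deep barcodes with 5099209 UMIs. The 90% aliquot had 1243 and 606 barcodes with 6452314 and 29875734 UMIs. Levels are given as CPM, the UMIs of a gene per 1000000 UMIs of its class, with an exact 95% Poisson interval, and CPM ratios with an exact conditional interval. There was 1 capture, so there is no replicate and no test, and all intervals cover counting error only.

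The aliquots were not separate cells. Of the 269 barcodes with at least 3000 UMIs in the 10% aliquot, 263 had the same sequence at that depth in the 90% aliquot. The profile of such a barcode correlated with that of the same sequence in the other aliquot with a median r of 0.91, against 0.565 with that of the next shared sequence in alphabetical order. Values are therefore also given for the unshared barcodes of the 90% aliquot, of which 1000 were shallow non-cycling and 399 were deep.

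The classes were checked with marker genes. Of 10 markers of quiescent muscle stem cells, 9 passed a mean of 10 CPM over the classes in both aliquots, and 7 of these were at least 2-fold higher in the shallow non-cycling class. Chrdl2 was at 215 CPM against 1.34 CPM in the 90% aliquot, and Calcr was at 35.0 CPM against 0.74 CPM. Myod1, the activation factor, went against a plain reading of the class as resting cells, at 1069 CPM in the shallow non-cycling and 213 CPM in the deep barcodes of the 90% aliquot. The class is therefore called by its rule. Of 8 activation and cycling markers the other 7 were higher in the deep class. These 7 are cell cycle genes. The shallow non-cycling class was itself chosen for 0 UMIs of Rrm2, Top2a and Cdk1, so these markers are no independent check. Of 8 markers of any muscle stem cell state 5 were higher in the shallow non-cycling class. Of 7 differentiation markers 4 passed, with 1 higher in the shallow non-cycling and 2 in the deep class. Of 7 myofibre markers 4 passed, with 1 higher in each class, of 7 pericyte or smooth muscle markers 2 passed with 1 higher in the shallow non-cycling class, and 0 of 8 endothelial, 5 Schwann and 4 tenocyte markers passed in both aliquots. In the 10% aliquot alone 2 Schwann markers passed and were at least 2-fold higher in the shallow non-cycling class, with a summed level of the 5 of 87.9 CPM against 2.35 CPM. In the 90% aliquot alone the tenocyte marker Scx passed, at 4.18 CPM against 21.3 CPM. Of 12 stress and immediate early genes, 9 were at least 2-fold higher in the shallow non-cycling class in both aliquots, with a summed level of 3864 CPM against 526 CPM in the 90% aliquot, and their part in the results below was not tested. The summed level of 10 immune markers was 305 CPM against 5.82 CPM in the 90% aliquot and 348 CPM against 107 CPM in the 10% aliquot. Of 8 fibro-adipogenic markers, the summed level was 634 CPM against 64.4 CPM in the 90% aliquot, of which Gsn gave 325 CPM and 31.0 CPM, Col3a1 218 CPM and 25.7 CPM, and Dpt 49.1 CPM and 0.23 CPM. Of these markers 4 passed in both aliquots and 3 were at least 2-fold higher in the shallow non-cycling class, while the defining marker Pdgfra was at 0 UMIs there in both aliquots. Without the barcodes that held 3 markers of another cell type, 133 shallow non-cycling and 57 deep barcodes of the 10% aliquot were left. In the 90% aliquot 1100 and 492 were left. A larger part of the deep than of the shallow non-cycling class was lost in both aliquots. The rule took any UMI of a marker and was not corrected for depth. Median depth was 47106 UMIs in the deep and 4680 UMIs in the shallow non-cycling class of the 90% aliquot. The parts lost therefore do not compare the other cell types between the classes. The same 6 genes were then at least 2-fold higher, and the Spry1 ratio was 30.7 and 25.1.

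Promoters are shown for 3 genes because their genes had the widest gap between the classes (Errfi1 and Spry1) or were the one gene higher in deep barcodes (Met). Each run is the 250 bases before the RefSeq start on build GRCm38.p6, plus strand, 5′ to 3′. Capitals mark matches on either strand to the letters of an AP-1 site (TGANTCA), a cyclic AMP response element (TGACGTCA), an E-box (CANNTG) or an ETS site (CCGGAAGT). No marked matches overlapped.
Errfi1, chr4:150854820-150855069: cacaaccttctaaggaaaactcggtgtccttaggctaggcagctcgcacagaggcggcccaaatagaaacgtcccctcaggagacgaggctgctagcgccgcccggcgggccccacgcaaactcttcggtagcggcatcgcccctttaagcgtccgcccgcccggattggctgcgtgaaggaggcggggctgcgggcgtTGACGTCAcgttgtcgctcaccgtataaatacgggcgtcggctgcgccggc
Spry1, chr3:37639697-37639946: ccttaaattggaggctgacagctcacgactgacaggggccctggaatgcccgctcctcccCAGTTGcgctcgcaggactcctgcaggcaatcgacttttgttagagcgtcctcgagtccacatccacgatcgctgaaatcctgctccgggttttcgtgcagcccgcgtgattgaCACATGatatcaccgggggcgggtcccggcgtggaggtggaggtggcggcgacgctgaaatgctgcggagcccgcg
Met, chr6:17463707-17463956: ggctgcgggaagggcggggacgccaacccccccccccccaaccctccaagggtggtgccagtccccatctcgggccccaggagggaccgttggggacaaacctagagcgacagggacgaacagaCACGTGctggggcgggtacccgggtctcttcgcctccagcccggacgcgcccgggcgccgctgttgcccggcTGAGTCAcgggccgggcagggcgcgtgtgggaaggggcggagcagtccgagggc
The Errfi1 promoter held 1 cyclic AMP response element, found in 1.55% of the 32851 promoters of the same length. The Met promoter held 1 AP-1 site, found in 6.75% of promoters, and 1 E-box. The Spry1 promoter held 2 E-boxes, and at least 1 E-box was found in 66.2% of promoters. ETS letters, found in 2.88% of promoters, were in none of these 3 windows. A match is a description of the letters and not of binding. RefSeq promoters were matched for 8 of the 10 genes.

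Of the 10 genes, 9 had a higher CPM in the shallow non-cycling class in both aliquots and Met had a lower one. Of these, 6 (Fgfr1, Fgfr4, Igf2r, Spry1, Spry2 and Errfi1) passed the mean of 10 CPM and were at least 2-fold higher in the shallow non-cycling class in both aliquots, and 0 were at least 2-fold higher in the deep class. Spry1 and Igf2r were under 10 CPM in the deep class of both aliquots and passed through their shallow non-cycling level. The mean of Igf2r in the 10% aliquot was 10.1 CPM. Among all 5999 genes that passed in both aliquots, 16.2% were at least 2-fold higher in the shallow non-cycling class and 24.4% were at least 2-fold higher in the deep class. A higher CPM of any size in the shallow non-cycling class of both aliquots was found for 39.8% of genes, and the direction was the same in both aliquots for 92.2%. Taken alone, each aliquot had 7 of the 10 genes at least 2-fold higher in the shallow non-cycling class and 0 in the deep class. The shares of all genes were 18.8% and 27.9% in the 10% aliquot, 18.4% and 28.2% in the 90% aliquot, and 18.4% and 28.1% in its unshared barcodes. A higher CPM of any size in the shallow non-cycling class was found for 44.4%, 43.6% and 43.5% of genes. With the unshared barcodes in place of the whole 90% aliquot, the same 6 genes passed. The members past the filter numbered 8 in the 10% aliquot and 9 in the others. Their median CPM ratio of shallow non-cycling over deep was 3.05 in the 10% and 3.75 in the 90% aliquot. It was 4.0 in the unshared barcodes. The median over all genes past the filter was 0.88, 0.87 and 0.87. The value of 3.75 is the ratio of Igf2r and that of 4.0 the ratio of Dusp6. Dusp6, among the 7 genes called in the 90% aliquot, also passed through its shallow non-cycling level. Its deep levels were 7.03 CPM there and 6.66 CPM in the unshared barcodes. The member medians therefore depend on the filter and are no support for the counts.

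**Figure D1:**
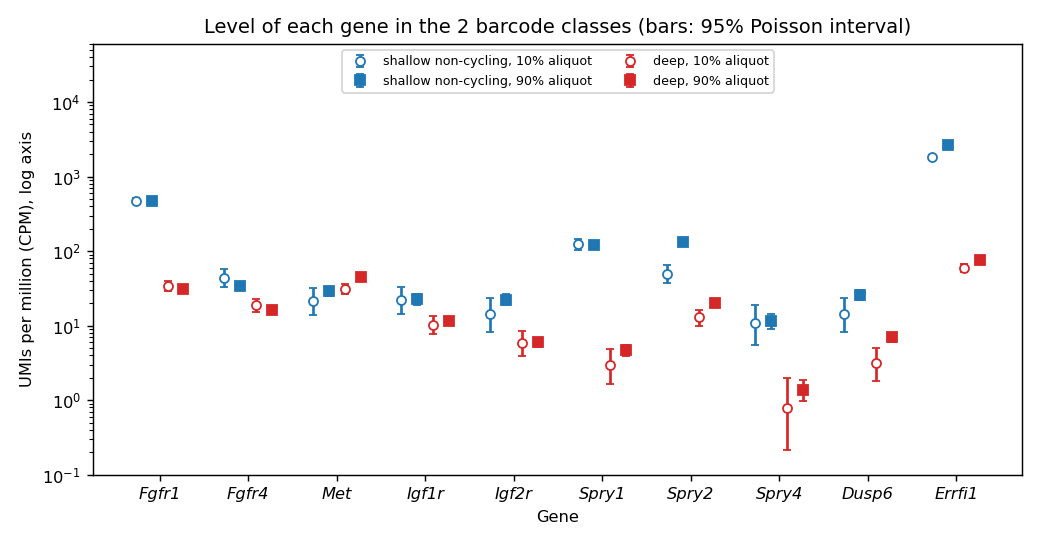
Level of the 10 genes in the shallow non-cycling (blue) and deep (red) barcodes of the 10% aliquot (circles) and 90% aliquot (squares), in CPM on a log axis, with 95% Poisson intervals. Met is the one gene whose red points lie above its blue points, at 31.4 and 44.9 CPM against 21.5 and 29.0 CPM.

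Among the receptors, Fgfr1 (chromosome 8) differed most between the classes. It was at 476 CPM in the shallow non-cycling and 33.7 CPM in the deep barcodes of the 10% aliquot, and at 463 CPM and 31.3 CPM in the 90% aliquot. The ratio was 14.1 (11.8 to 16.8) and 14.8 (13.8 to 16.0), and 14.3 (13.1 to 15.7) in the unshared barcodes. The intervals of the classes lay far apart in both aliquots.

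Fgfr4, the other fibroblast growth factor receptor, differed much less. Its level was 44.0 CPM against 18.8 CPM in the 10% aliquot and 34.3 CPM against 16.4 CPM in the 90% aliquot. The ratio of 2.34 (1.62 to 3.33) and of 2.09 (1.78 to 2.46) had an interval that held the 2-fold threshold in both.

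Met was lower in the shallow non-cycling class. It was at 21.5 CPM against 31.4 CPM in the 10% aliquot, a ratio of 0.69 whose interval of 0.43 to 1.06 held 1. It was at 29.0 CPM against 44.9 CPM in the 90% aliquot, a ratio of 0.65 (0.55 to 0.75), and at a ratio of 0.59 (0.49 to 0.71) in the unshared barcodes. Met thus went against the other receptors, by less than 2-fold.

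Both insulin-like growth factor receptors had a higher CPM in the shallow non-cycling class. Igf1r was at 22.4 CPM against 10.2 CPM and at 22.5 CPM against 11.6 CPM, with ratios of 2.20 (1.31 to 3.61) and 1.93 (1.58 to 2.36), so that it passed 2-fold in the 10% aliquot alone. Igf2r was at 14.4 CPM against 5.88 CPM and at 22.3 CPM against 5.96 CPM, with ratios of 2.44 (1.24 to 4.62) and 3.75 (2.99 to 4.69). The 10% values of Igf2r rest on 16 and 30 UMIs. With a deep class of at least 40000 UMIs Igf2r was not among the genes called, although its ratios were 3.27 and 4.01. The reason was that it no longer passed the mean of 10 CPM in both aliquots. The same held with a shallow class of 1000 to 15000 UMIs, at ratios of 2.39 and 3.65. It also held with all barcodes of 3000 to 15000 UMIs, at ratios of 2.27 and 3.73.

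Of the Sprouty genes, Spry1 had the widest gap. It was at 124 CPM against 2.94 CPM in the 10% aliquot and at 122 CPM against 4.65 CPM in the 90% aliquot, with ratios of 42.1 (24.7 to 77.2) and 26.1 (21.8 to 31.5). The lower level in the 10% aliquot rests on 15 UMIs over 79 deep barcodes. In the unshared barcodes the ratio was 27.2 (21.4 to 35.0).

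Spry2 was at 49.3 CPM against 12.9 CPM in the 10% aliquot and at 132 CPM against 20.1 CPM in the 90% aliquot. Its ratios of 3.81 (2.62 to 5.54) and 6.57 (5.91 to 7.31) had intervals that did not meet. The 10% ratio of Spry2 was 1.68 as the mean CPM of each barcode and 8.99 with a deep class of at least 40000 UMIs. Spry4 was at 10.8 CPM against 0.78 CPM and at 11.5 CPM against 1.37 CPM, and its mean level stayed under 10 CPM in both aliquots. Its ratios were 13.7 (4.16 to 58.4), on 12 and 4 UMIs, and 8.36 (5.63 to 12.6), on 74 and 41 UMIs.

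Among the feedback genes outside the Sprouty family, Errfi1 was at 1855 CPM against 59.2 CPM in the 10% aliquot and at 2651 CPM against 75.3 CPM in the 90% aliquot. The ratios were 31.3 (27.7 to 35.5) and 35.2 (33.7 to 36.8), and 36.3 (34.4 to 38.4) in the unshared barcodes. Dusp6 was at 14.4 CPM against 3.14 CPM, under the mean of 10 CPM, in the 10% aliquot and at 25.7 CPM against 7.03 CPM in the 90% aliquot. Its ratios were 4.58 (2.14 to 9.77) and 3.66 (2.97 to 4.51).

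CPM is a share of the RNA captured, and deep barcodes held more of it. Counted per barcode, 3 genes had more UMIs in the shallow non-cycling class of the 90% aliquot. Errfi1 had 13.8 UMIs per shallow non-cycling and 3.71 per deep barcode, Fgfr1 had 2.41 and 1.54, and Spry1 had 0.63 and 0.23. The order was turned for the others: Fgfr4 had 0.18 and 0.81 UMIs per barcode, Spry2 had 0.69 and 0.99, and Met had 0.15 and 2.21. In the 10% aliquot Spry4 also had more UMIs per shallow non-cycling barcode, at 0.076 against 0.051. A lower CPM in deep barcodes was therefore not a lower number of UMIs per barcode for Fgfr4, Igf1r, Igf2r, Spry2 and Dusp6 in either aliquot.

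To compare shares of barcodes at equal depth, each barcode was thinned to 3000 UMIs. Errfi1 was then seen in 88.6% (86.7% to 90.3%) of the shallow non-cycling and 18.6% (15.6% to 22.0%) of the deep barcodes of the 90% aliquot. Fgfr1 was seen in 61.4% (58.6% to 64.1%) and 9.57% (7.35% to 12.2%). Spry1 was seen in 20.2% (18.0% to 22.5%) and 1.49% (0.68% to 2.80%), so that most shallow non-cycling barcodes showed none of it at this depth. Spry2 was seen in 19.2% and 5.12%, and Met in 7.32% (5.94% to 8.91%) and 12.7% (10.2% to 15.6%). Without thinning, the shares in deep barcodes were 75.7% for Errfi1, 65.2% for Fgfr1, 15.3% for Spry1, 38.9% for Spry2 and 75.9% for Met, with 91.2%, 72.1%, 26.2%, 26.4% and 11.3% in shallow non-cycling ones. The median depth of the classes was 47106 and 4680 UMIs.

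Errfi1 varied widely within the shallow non-cycling class. Thinned barcodes of the 90% aliquot held a median of 7 Errfi1 UMIs, with quartiles of 3 and 12 and a highest value of 42. The 10% of barcodes with the most Spry1 held 73.4% of its thinned UMIs, against 28.8% for Errfi1 and 36.5% for Fgfr1, at means of 0.38, 8.25 and 1.40 thinned UMIs per barcode.

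Free RNA was gauged in immune-like barcodes, whose own level of these genes is not known, and in barcodes with under 200 UMIs. The 8 shallow non-cycling barcodes of the 90% aliquot with at least 3 immune markers had a median depth of 9278 UMIs, and in 75250 UMIs they held 0 UMIs of Fgfr1 and of Spry1. They held 0 UMIs of Errfi1, 1 UMI of Met and 1 UMI of Igf2r. The limit that a count of 0 allows, 3 UMIs of this total, is 39.9 CPM, which is above the 90% levels of Fgfr4, Met, Igf1r, Igf2r, Spry4 and Dusp6 in the shallow non-cycling class. In the 1392 barcodes of the 10% aliquot with under 200 UMIs, Errfi1 was at 604 CPM and Fgfr1 at 109.8 CPM, on 22 and 4 UMIs. In the 149 such barcodes of the 90% aliquot Errfi1 was at 96.5 CPM (11.7 to 349) on 2 UMIs, an interval that did not meet that of the 10% aliquot (378 to 914), and Fgfr1 had 0 UMIs.

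**Figure D2:**
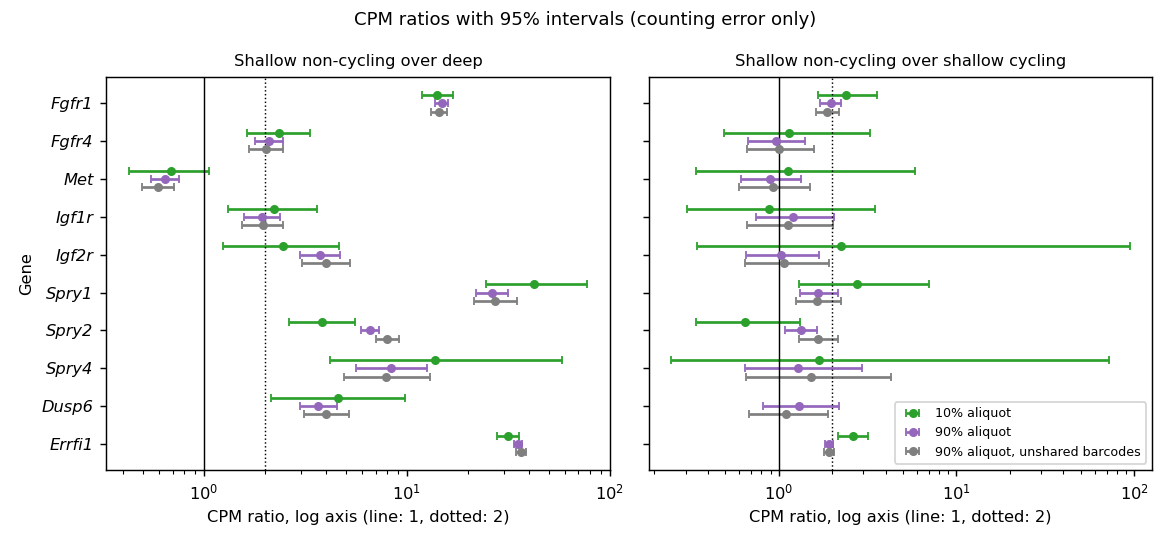
CPM ratio of each gene on a log axis with 95% intervals, for shallow non-cycling over deep barcodes (left) and over cycling barcodes of the same depth (right), in the 10% aliquot (green), the 90% aliquot (purple) and its unshared barcodes (grey). Ratios of 14.1 to 42.1 for Fgfr1, Spry1 and Errfi1 in the 10% aliquot on the left are 2.40 to 2.77 on the right, where Dusp6 of the 10% aliquot is left out because cycling barcodes held 0 UMIs.

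The comparator mattered most. Barcodes of the same 3000 to 15000 UMIs with at least 1 UMI of Rrm2, Top2a or Cdk1 numbered 21 in the 10% and 148 in the 90% aliquot. Against these, 8 of the 10 genes passed the filter and 0 were at least 2-fold higher in either class in both aliquots, beside 2.24% of all 5545 genes higher in the non-cycling and 9.27% higher in the cycling barcodes. Fgfr1 was at 237 CPM in the cycling shallow barcodes of the 90% aliquot, a ratio of 1.96 (1.72 to 2.24). Errfi1 was at 1379 CPM, a ratio of 1.92 (1.82 to 2.03), and Spry1 was at 73.0 CPM, a ratio of 1.67 (1.31 to 2.15). Spry2 had a ratio of 1.33 (1.08 to 1.65). The intervals of the other 6 genes held 1, among them Fgfr4 at 0.97 (0.68 to 1.41) and Met at 0.89 (0.61 to 1.33). Depth and cell state cannot be told apart in the comparison with deep barcodes.

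Levels were then followed over UMIs per barcode. These strata held cycling and non-cycling barcodes together, and the part of a change in their mix was not tested. Fgfr1 in the 90% aliquot was at 479 CPM in barcodes of 3000 to 6000 UMIs, 249 CPM in those of 10000 to 15000, 109 CPM in those of 15000 to 20000, 38.8 CPM in those of 20000 to 40000 and 31.5 CPM in those of 40000 to 60000. Errfi1 was at 2858, 948, 442, 99.4 and 73.7 CPM in the same barcodes. Spry1 was at 127, 44.0, 25.1, 6.61 and 2.68 CPM. Levels were lower at each step from 3000 to 60000 UMIs in this aliquot, and the steepest step between neighbouring strata for all 3 genes was the one at 20000 UMIs, the border of the deep class. In the 10% aliquot Spry1 was at 72.0 CPM below that border and 7.32 CPM above it, Fgfr1 at 187 and 67.7 CPM, and Errfi1 at 700.5 and 232 CPM. The steepest step of Errfi1 there was at 40000 UMIs, from 232 to 35.8 CPM. From 3000 to 6000 UMIs to 6000 to 10000 UMIs, Errfi1 rose there from 1664 to 1944 CPM and Spry1 from 98.9 to 140 CPM. Barcodes of 1000 to 3000 UMIs in the 90% aliquot went against a fall with depth, at 257 CPM of Fgfr1, 64.2 CPM of Spry1 and 1098 CPM of Errfi1. Spry1 was at 6.96 CPM above 60000 UMIs in the 90% aliquot. Met was at 27.2 CPM in barcodes of 3000 to 6000 UMIs and at 46.4 CPM already in those of 10000 to 15000, and neighbouring strata above that did not differ beyond their intervals. In the 10% aliquot the intervals of Met overlapped in all 8 strata.

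**Figure D3:**
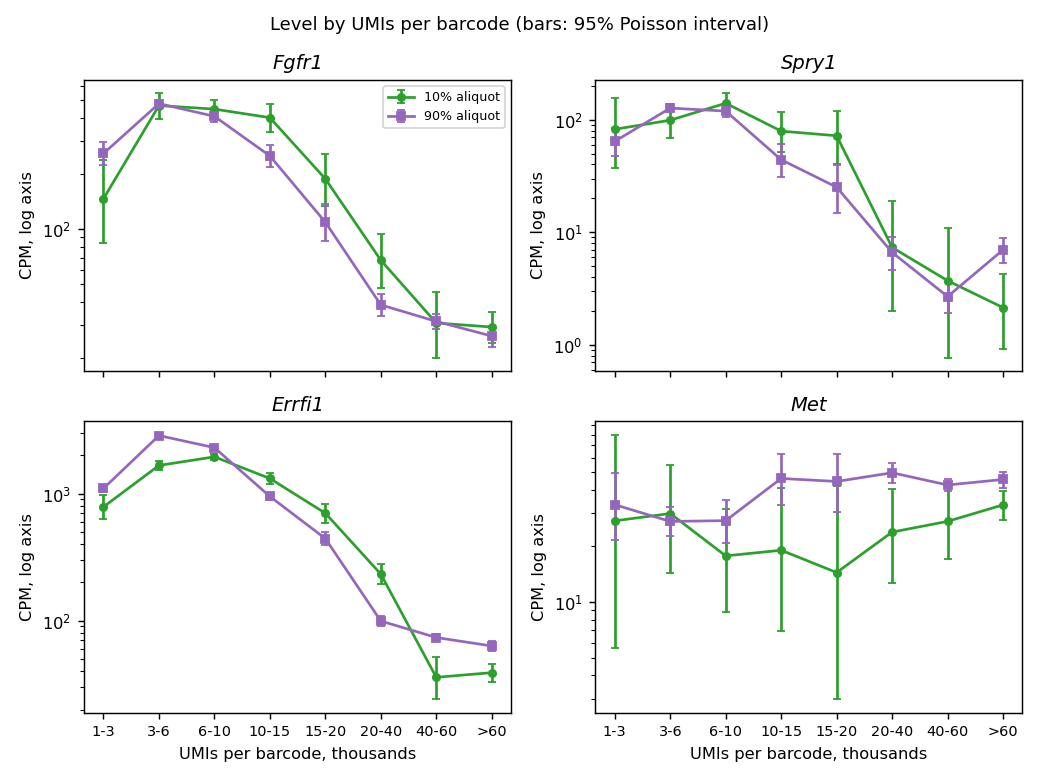
Levels of Fgfr1, Spry1, Errfi1 and Met in CPM (log axis) by UMIs per barcode, in the 10% aliquot (green circles) and 90% aliquot (purple squares), with 95% Poisson intervals. In the 90% aliquot Errfi1 runs from 2858 CPM at 3000 to 6000 UMIs to 63.2 CPM above 60000 UMIs.

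Over these 16 strata (8 of depth in each aliquot, with shared cells and a shared order of depth), the patterns most like that of Spry1 included those of Medag, Herpud1, Slc43a3 and Mapre3, each with a Pearson r of log2(CPM + 10) of 0.99. Of 6743 genes compared, 266 reached 0.9 for Spry1. For Fgfr4 the most like were Rsbn1l, Spats2l, Wdr20, Tspan7 and Gstm2 (0.88 to 0.85). For Igf2r they were Rab14, Tgfb1, Ctdsp2, Pdcd4 and Hjurp (0.94 to 0.88), and for Met Gm2308, Actb, Hnrnpa2b1, Gm15793 and Gm4374 (0.91 to 0.87).

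Within the shallow non-cycling class, barcodes with and without Myod1 were set side by side. In the 90% aliquot 604 barcodes had a Myod1 UMI and 639 had none, with median depths of 4730 and 4613 UMIs. Spry2 was at 166 CPM with and 99.2 CPM without Myod1, Errfi1 at 3042 and 2275 CPM, and Fgfr1 at 524 and 405 CPM. Spry1 was at 122 and 121 CPM, a ratio without over with Myod1 of 0.99 (0.86 to 1.14). In the 10% aliquot Spry1 was at 123 and 125 CPM. Among deep barcodes of the 90% aliquot, those with a UMI of Myog, the differentiation factor, held 23.3 CPM of Fgfr4 against 14.1 CPM in those without, and 8.85 CPM of Igf2r against 5.01 CPM. Spry2 was at 26.2 CPM with and 18.1 CPM without Myog there, but at 3.83 CPM (3 UMIs) and 14.6 CPM in the 10% aliquot, the opposite order.

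Other genes of the pathway were counted by lists. Of all 5999 genes that passed in both aliquots, 16.2% were at least 2-fold higher in the shallow non-cycling and 24.4% in the deep class. All list counts below stand beside these shares. Of 20 ERK-induced transcription factors and early targets, 15 passed the filter in both aliquots. Of these, 11 were at least 2-fold higher in the shallow non-cycling class and 1 in the deep class. The median ratio was 8.17 in the 10% and 8.59 in the 90% aliquot, beside 0.88 and 0.87 over all genes past the filter. Egr1 was at 789 CPM against 13.4 CPM in the 90% aliquot (473 CPM against 19.4 CPM in the 10% aliquot), Egr2 at 38.1 CPM against 1.20 CPM and Maff at 419 CPM against 17.1 CPM. Fos, Fosb, Jun, Junb, Egr1, Atf3, Ier2 and Ier3 stand both on this list and on the stress list, so these list results largely share their genes. Of 27 other feedback regulators, 10 passed, 6 were higher in the shallow non-cycling and 1 in the deep class, among them Socs3 (78.9 CPM against 6.09 CPM, and 36.8 CPM against 7.26 CPM in the 10% aliquot), the phosphatase Dusp1 (172 CPM against 14.2 CPM, and 129 CPM against 5.88 CPM) and the Sprouty-related Spred1 (101 CPM against 18.3 CPM).

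Genes between receptor and target were counted next. Of 16 genes of the RAS-ERK cascade 11 passed, with 1 higher in each class: Rps6ka3 at 52.8 CPM against 10.9 CPM and Hras at 33.2 CPM against 89.7 CPM. Of 15 genes of the PI3K-AKT cascade 8 passed, with Foxo1 at 24.6 CPM against 4.55 CPM and Akt1 at 14.3 CPM against 39.2 CPM (6.28 CPM against 32.9 CPM in the 10% aliquot). Of 17 adaptors 6 passed, and Irs2, a docking protein of the insulin and IGF1 receptors, was at 22.0 CPM against 5.32 CPM. Of 21 other receptors 4 passed, with Egfr, a receptor that ERRFI1 inhibits, at 45.7 CPM against 13.1 CPM and Axl at 53.3 CPM against 120 CPM.

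Of 21 ligands 4 passed in both aliquots. Igf1 was at 40.1 CPM against 0.13 CPM (20.6 CPM against 0.39 CPM in the 10% aliquot). Its deep levels rest on 4 UMIs in the 90% and 2 UMIs in the 10% aliquot. Immune and fibro-adipogenic markers were also higher in the shallow non-cycling class, and Igf1 was not measured without the barcodes that held them. In the 90% aliquot Hbegf was at 100 CPM against 20.6 CPM and Pdgfa at 31.8 CPM against 102 CPM. Of 19 co-receptors and IGF binding proteins 10 passed, with 3 higher in each class: Igfbp7 was at 92.1 CPM against 4.52 CPM (121 CPM against 19.6 CPM in the 10% aliquot) and Sdc4 at 755 CPM against 69.4 CPM, while Igfbp2 was at 2.63 CPM against 36.4 CPM.

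Long reads of the 10% aliquot gave isoforms, with 1382498 UMIs in the shallow non-cycling and 4628237 in the deep class. Spry2 had no isoform in the counts. The long-read CPM ratio was 11.8 (10.7 to 13.0) for Fgfr1, 29.6 (22.6 to 39.5) for Spry1 and 19.4 (18.1 to 20.8) for Errfi1. It was 1.81 (1.42 to 2.30) for Fgfr4, 1.59 (1.05 to 2.37) for Igf2r and 1.06 (0.84 to 1.34) for Met, so that the lower level of Met in the shallow non-cycling class was not seen in long reads.

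Of the 10 genes, 5 had at least 50 long-read UMIs in each class, and 1 of them, Met, had an isoform whose share differed by at least 20 percentage points, beside 17.3% of the 3265 genes measured that way. The Met isoform from 17553298 to 17573970 on chromosome 6 (plus strand, GRCm38), which begins inside the gene and reaches its 3′ end, made up 11.3% (11 of 97 UMIs) in the shallow non-cycling and 50.2% (153 of 305 UMIs) in the deep class, a difference of -38.8 points (-46.2 to -29.2). The isoform from 17463983 to 17513799, which stops 60181 bases before the annotated gene end, made up 23.7% and 5.57%. A further isoform from 17463800 to 17492711 made up 20.6% and 10.2%.

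By position, 11.3% of the Met UMIs in the shallow non-cycling class and 50.2% in the deep class lay on isoforms that end in the last exon. These are the UMIs of the isoform from 17553298 to 17573970 given above, so this is the same difference and not a further result. In either class 0 UMIs lay on an isoform with both an annotated start and an end in the last exon. A share ending in the last exon that was lower by at least 20 points in the shallow non-cycling class was found for 9.26% of the 3196 genes measured. An annotated start (within 100 bases of a Gencode coding transcript) was found for 88.7% and 43.3% of Met UMIs, and 1.94% of genes had a share higher by at least 20 points in the shallow non-cycling class. No Met UMI was counted in both shares, so the start share largely mirrors the end share. Of the Met UMIs, 62.9% and 30.8% began within 100 bases of the RefSeq start that follows the promoter shown above. The shares by position were chosen after the isoforms were seen.

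Fgfr1 showed the same order with a smaller step. The share ending in the last exon was 56.3% (54.0% to 58.5%) in the shallow non-cycling and 66.9% (62.7% to 70.8%) in the deep class. Over the UMIs of all 3196 genes measured, this share was 88.4% and 93.1%, with a median difference per gene of 0 points. The isoform from 25518795 to 25533707 on chromosome 8, which stops 42011 bases before the gene end, made up 40.9% (776 of 1895 UMIs) and 27.0% (145 of 537 UMIs), a difference of 13.9 points (9.47 to 18.2). An isoform share that differed by at least 10 points was found for 53.5% of the 3265 genes measured, so such a step is common. The reference isoforms ENSMUST00000119398.9 and ENSMUST00000117179.8 made up 13.3% and 14.3%, and 7.86% and 11.5%.

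**Figure D4:**
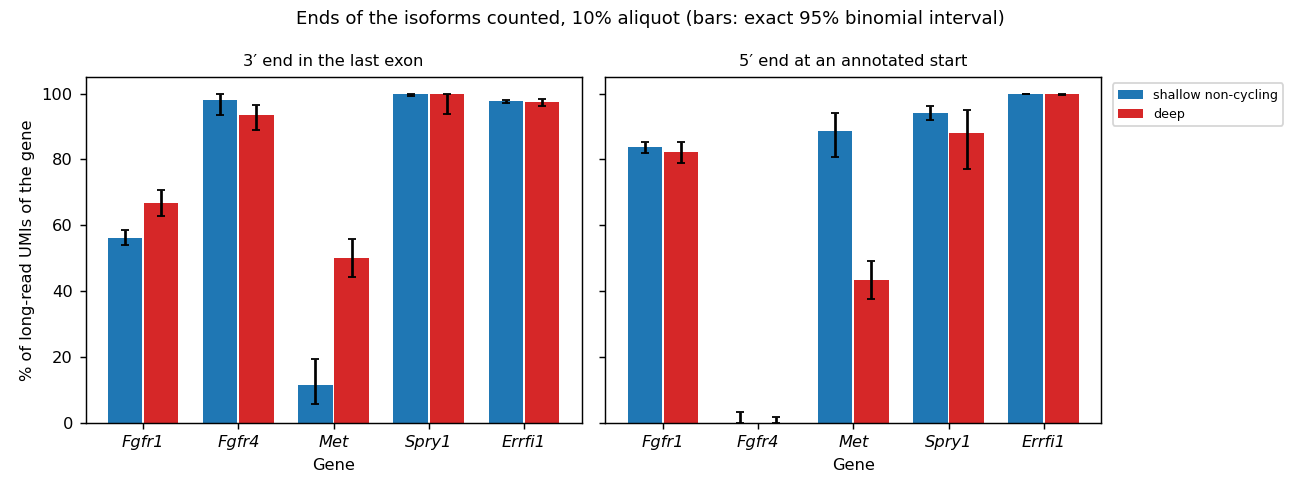
Share of the long-read UMIs of the 5 genes with at least 50 in each class on isoforms whose 3′ end lies in the last exon (left) and whose 5′ end lies at an annotated coding start (right), in shallow non-cycling (blue) and deep (red) barcodes of the 10% aliquot, with exact 95% binomial intervals. Met stands apart, at 11.3% and 50.2% on the left and 88.7% and 43.3% on the right, where Fgfr4 is at 0% in both classes.

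Of the feedback genes, Spry1 and Errfi1 had enough long-read UMIs to compare. All Spry1 UMIs, 522 and 59, ended in the last exon, and 94.3% and 88.1% began within 100 bases of the RefSeq start that follows the promoter shown above. All Errfi1 UMIs, 5893 and 1017, began within 100 bases of the start after the Errfi1 promoter shown, and none at the upstream RefSeq start. The reference isoform ENSMUST00000030811.1 made up 69.1% and 62.4% of Errfi1, a difference of 6.63 points (3.47 to 9.86). Dusp6 was counted as 1 reference isoform, ENSMUST00000020118.4, on 30 and 50 UMIs.

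The main Fgfr4 isoform, from 55152816 to 55168730 on chromosome 13, begins 2 bases from the RefSeq start and ends in the last exon, although no Fgfr4 UMI began within 100 bases of a Gencode coding start. It made up 54.2% and 54.5% of the 107 and 198 Fgfr4 UMIs, a difference of -0.34 points (-11.9 to 11.1). Igf1r rested on 31 and 37 UMIs and Igf2r on 38 and 80 UMIs, none of them on an isoform with both an annotated start and an end in the last exon. Spry4 was counted as 1 isoform that stops 2725 bases before the gene end, on 17 and 11 UMIs.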

How the data were processed

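Tools named in the submitters' processing notes, without a role, are Cell Ranger 1.3 and minimap2 2.17, with build GRCm38.p6. By the study's methods, the authors made the short-read gene counts with scPipe, aligned long reads with minimap2 and built and counted isoforms with FLAMES. The deposited values are raw UMI counts per gene or isoform and barcode.

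Counts were summed per class and scaled to CPM in Python 3.11.15 (numpy 2.4.6, pandas 2.3.3, scipy 1.17.1). A gene counted as different at 2-fold or more in both aliquots with a mean of at least 10 CPM over the classes. A class at 0 was set to 3 counts for ratios. Isoform comparisons needed 50 UMIs in each class, with Newcombe intervals for differences. Gene ends and starts came from Gencode vM21 and promoters from RefSeq. No doublet caller was run and doublets were kept. Of the gene IDs, 39 and 58 had no symbol. The scripts were tested on simulated data. The genes, lists and classes were chosen with earlier results of these data known, and the unshared barcodes were added after seeing the data. Of each pathway list, up to 3 genes are named, those with the largest absolute log2 ratio in the 90% aliquot among genes past 2-fold the same way in both aliquots. A gene that the rule on likeness to Spry1 would name is not reported here.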

Additional observations from a re-analysis of the deposited data

How the results depend on the processing

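The count of 6 genes at least 2-fold higher in the shallow non-cycling class was 0 with cycling barcodes of the same depth as the comparator, and the count of 10 genes with the same direction in both aliquots was then 6. Against that comparator Fgfr4 turned to 0.97 in the 90% aliquot, and Igf1r to 0.88, Spry2 to 0.64 and Met to 1.12 in the 10% aliquot. The count of 6 was 4 as the mean CPM of each barcode (without Fgfr4, Igf2r and Spry2, and with Dusp6). It was 4 with 10 CPM added (without Fgfr4 and Igf2r), which took the 10% Spry1 ratio to 10.3. Without mitochondrial and ribosomal protein genes in the total it was 8, with Igf1r and Dusp6 added. Long reads, of the 10% aliquot alone, gave 5, beside 7 by its short reads. These 5 were Fgfr1, Spry1 and Errfi1 with Igf1r and Dusp6, while Fgfr4 and Igf2r were under 2-fold and Spry2 was not counted. Leaving out the barcode sequences shared with the 10% aliquot, chosen after seeing the data, left 6 and 10. The count of 1 gene with an isoform share difference of at least 20 points was 3 of 8 with a minimum of 20 UMIs, 2 of 5 at 10 points and 0 of 2 with reference-named isoforms alone, beside 29.3%, 53.5% and 5.65% of all genes. Of 249 CPM ratios under the alternatives, 194 lay within the counting interval of the reported value. Median-of-ratios scaling moved all log2 ratios by 0.18 and 0.20 and no direction. It raised the share of shallow non-cycling genes among all calls from 40.2% to 47.5% in the 10% aliquot and from 39.6% to 48.3% in the 90% aliquot. No paired analysis was possible because there was 1 capture and no result came from a test. With 1 capture, mouse-to-mouse spread is not measured, and the low UMI counts of Spry4, Dusp6, Igf1r and Igf2r limit their ratios.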
